A study of Mus musculus with 10 samples.

Results

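The 10 genes described here encode Polycomb and trithorax proteins, histone demethylases and the chromatin protein PHF6. Several of them recur as lesions in T-ALL, the acute lymphoblastic leukemia that arises from developing T cells. The 10 genes were taken by symbol from the 20813 genes of the deposited table, and all 10 were present. Ezh2, Ezh1, Suz12, Eed and Jarid2 belong to Polycomb repressive complex 2 (PRC2), and Kmt2a and Kmt2d to the trithorax group. Kdm6a and Kdm6b encode the demethylases. RNA came from 10 leukemic spleens of C57BL/6 mice. In each, T-ALL cells carrying a conditional Sirt1 allele had been transplanted into a recipient irradiated below the lethal dose. The spleens fell into 5 whose genotype is labelled Sirt1 deleted (titled TMX, numbered 7, 8, 10, 11 and 12) and 5 labelled Control (titled VEH, numbered 2 to 6). Tamoxifen, at 3 mg per mouse in corn oil, or corn oil alone was injected into the peritoneum, and the titles divide the samples exactly as the genotype does. Genotype and drug therefore cannot be told apart. Both groups share the conditional allele, the transplantation and the irradiation. The Cre driver, the age of the mice and the number of leukemias from which the transplants derived are not given in the sources used here, so p-values measure only the spread between these spleens. Host cells remain in a spleen suspension after red cell lysis. In such bulk RNA, fewer cells of a type and less RNA per cell cannot be told apart.

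PRC2 places methyl groups on lysine 27 of histone H3, a mark of silenced genes, and Polycomb repressive complex 1 (PRC1) adds ubiquitin to histone H2A. KDM6A and KDM6B remove the lysine 27 mark, while the KMT2 enzymes methylate lysine 4 of histone H3 at active promoters and enhancers. In human T-ALL, PRC2 core genes, KDM6A and PHF6 are recurrently mutated with loss of function, KMT2A is rearranged in a subset, and KDM6B is known to assist NOTCH1-driven growth.

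Sirt1 was examined first as a check of the labels. It measured 1925, 1715, 1817, 1812 and 2097 normalized counts in labelled Sirt1-deleted samples 7, 8, 10, 11 and 12, and 1735, 1803, 1796, 1909 and 1810 in control samples 2 to 6. The gene-level value thus did not fall with the label (log2 difference 0.05, SE 0.06; limma adjusted p = 0.568; exact two-sided permutation p = 0.413). A gene total does not show which exons were read, and the group keeps the name labelled Sirt1-deleted in what follows. Totals of the deposited values lay between 33.7 M and 34.5 M normalized counts per sample.

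Ezh2 and Kmt2d rose in the labelled Sirt1-deleted spleens, whereas Jarid2, Kdm6a, Kdm6b, Phf6 and, at the edge of the threshold, Ezh1 fell. Suz12, Eed and Kmt2a did not pass the test. The changes were modest: group means of Ezh2 differed by 23.5% and those of Kmt2d by 23.9%, and the mean of Phf6 differed by -29.3%. In all, 7 of the 10 genes (70.0%) passed a limma adjusted p of 0.05, against 36.1% of the 15276 genes tested across the table. The 2 higher genes are 20% of the 10, near the 16.8% of all tested genes that were higher, and the 5 lower genes are 50%, against 19.4%. The median log2 difference of the 10 genes was -0.16, and that of all tested genes was -0.00014. Without regard to sign, the medians were close, at 0.26 and 0.23. All 10 genes had group means of at least 1073, whereas genes with a mean as low as 10 were tested. The shares called are thus not matched for level. After upper-quartile rescaling or quantile normalization, 3 genes rather than 5 were lower, without Ezh1 and Kdm6b. Values of the groups did not overlap for 4 of the 10 genes (40.0%), namely Ezh2, Jarid2, Kdm6a and Phf6, against 24.0% of all tested genes.

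**Figure D1:**
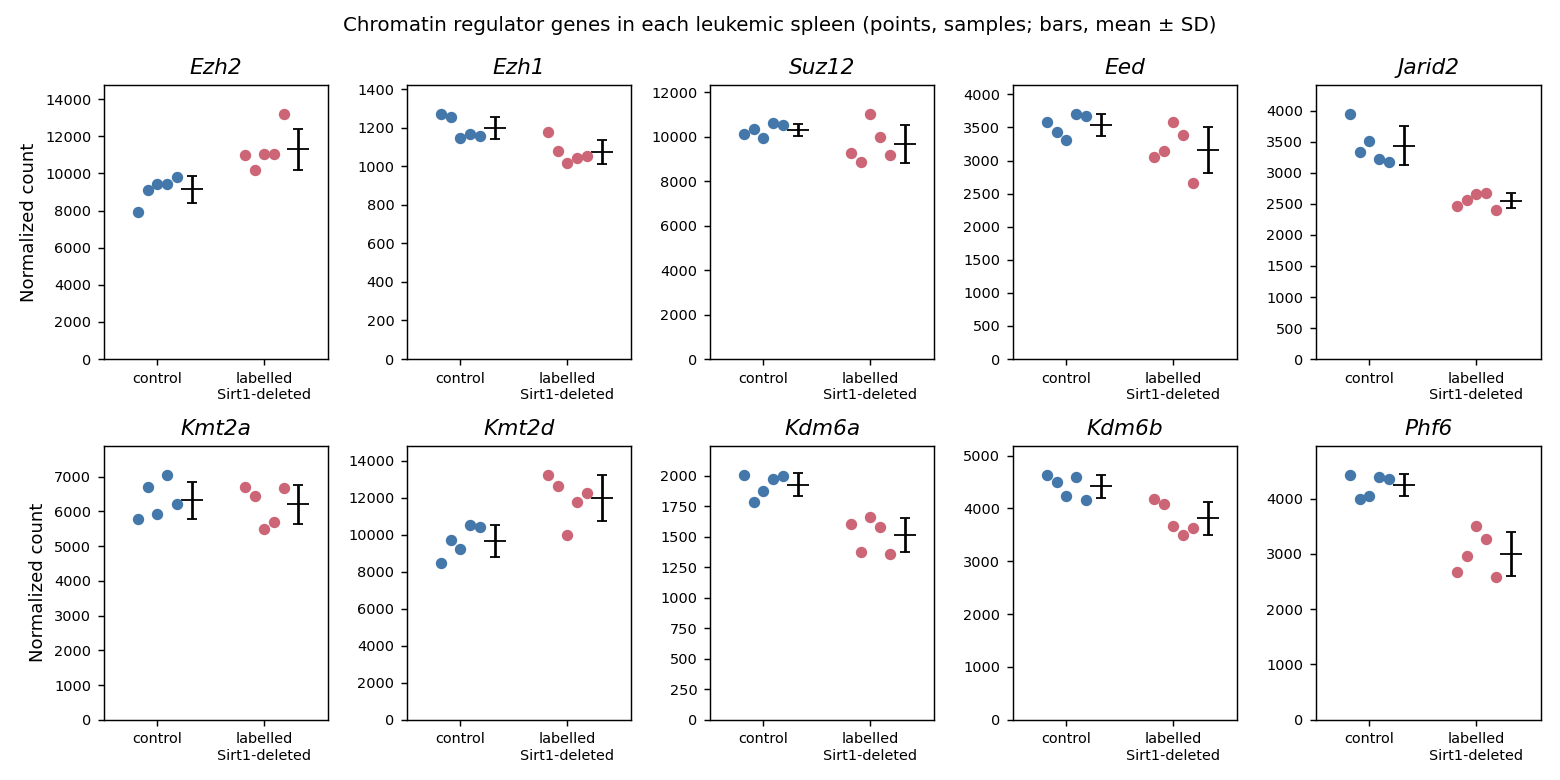
Normalized counts (linear axes from 0) of the 10 genes in each control and labelled Sirt1-deleted spleen; points are samples, and bars give the mean ± SD (n = 5 per group). Groups are apart for Ezh2, Jarid2, Kdm6a and Phf6, and overlap for the other 6 genes.

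Ezh2 encodes the main methyltransferase of PRC2 and is typically abundant in dividing cells. The gene lies on chromosome 6 at 47530139 to 47595341 (minus strand; GRCm38, the build that the submitters' processing notes call mm10). It measured 10976, 10176, 11058, 11049 and 13182 normalized counts in labelled Sirt1-deleted samples 7, 8, 10, 11 and 12. In control samples 2 to 6 it measured 7942, 9107, 9452, 9408 and 9791. Every labelled Sirt1-deleted sample lay above every control, and sample 12 was the highest. The mean rose from 9140 ± 712 to 11288 ± 1121 (SD over 5 samples each), a log2 difference of 0.30 (SE 0.07, 95% interval 0.15 to 0.46; limma adjusted p = 0.00738; exact two-sided permutation p = 0.00794, the smallest that this design allows). Without sample 12 the difference was 0.25, with a limma adjusted p of 0.011.

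Ezh1, the paralog of Ezh2 with weaker methyltransferase activity that is typical of resting cells, lies on chromosome 11 at 101191115 to 101226463 (minus strand). Its normalized counts were 1175, 1081, 1016, 1042 and 1051 in labelled Sirt1-deleted samples 7, 8, 10, 11 and 12, and 1269, 1254, 1145, 1169 and 1159 in controls 2 to 6. Sample 7 lay within the controls and the other 4 below them. The fall of 0.16 on the log2 scale (SE 0.06) sat at the threshold (limma adjusted p = 0.0487; exact two-sided permutation p = 0.0317). The call was lost in 9 of the 10 fits that left out 1 sample, all but that without labelled Sirt1-deleted sample 7, with differences from -0.18 to -0.14 and limma adjusted p up to 0.112. It was also lost in 8 of the 11 other settings, and after correction for transcript length and GC content the difference was -0.06 (limma adjusted p = 0.446).

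Suz12 and Eed encode the other core subunits, without which the enzyme is inactive; EED binds the methyl mark itself. Suz12 (chromosome 11, 79993106 to 80034123, plus strand) measured 9287, 8869, 11009, 9987 and 9161 in labelled Sirt1-deleted samples 7, 8, 10, 11 and 12, and 10132, 10345, 9935, 10615 and 10506 in controls 2 to 6. Sample 10 was above every control, and samples 7, 8 and 12 were below them. The log2 difference of Suz12 was -0.10 (95% interval -0.22 to 0.03; limma adjusted p = 0.202; exact two-sided permutation p = 0.143). Eed (chromosome 7, 89954654 to 89980983, minus strand) measured 3053, 3143, 3576, 3387 and 2659, against 3588, 3424, 3309, 3698 and 3668 in controls. Its log2 difference was -0.17 (95% interval -0.32 to -0.01; limma adjusted p = 0.0896; exact two-sided permutation p = 0.0476). Both calls depended on sample 10 and on the setting. Without that sample Suz12 differed by -0.15 (limma adjusted p = 0.0241) and Eed by -0.21 (limma adjusted p = 0.0255). With all samples, both passed with sample weights (Suz12 -0.14, limma adjusted p = 0.0378; Eed -0.18, limma adjusted p = 0.0310), and Eed also after the length and GC correction (-0.19, limma adjusted p = 0.0417).

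Jarid2 encodes an accessory subunit that helps PRC2 find and act on chromatin (chromosome 13, 44729474 to 44921643, plus strand). Normalized counts were 2463, 2559, 2666, 2680 and 2406 in labelled Sirt1-deleted samples 7, 8, 10, 11 and 12, and 3945, 3330, 3520, 3217 and 3176 in controls 2 to 6. The groups were well apart, and control 2 was the highest sample. The mean fell from 3438 ± 314 to 2555 ± 121 (SD over 5 samples each), a log2 difference of -0.42 (SE 0.06, 95% interval -0.56 to -0.29; limma adjusted p = 7.66e-04; exact two-sided permutation p = 0.00794).

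The balance within PRC2 was also described as a ratio of normalized counts within each sample, which does not depend on the scaling between samples. The ratio of Ezh2 to Ezh1 was 9.34, 9.41, 10.9, 10.6 and 12.5 in labelled Sirt1-deleted samples 7, 8, 10, 11 and 12, and 6.26, 7.26, 8.26, 8.05 and 8.45 in controls 2 to 6. Ezh2 to Suz12 lay between 1.004 and 1.44 in the former and between 0.784 and 0.951 in the latter. The ratio of Ezh2 to Jarid2 ranged from 3.98 to 5.48 against 2.01 to 3.08, and that of Ezh2 to Eed from 3.09 to 4.96 against 2.21 to 2.86. None of these ratios overlapped between the groups, but all share Ezh2, whose own values did not overlap either. Jarid2 was lower without overlap, so its ratio with Ezh2 had to separate. The ratio of Suz12 to Eed overlapped, at 2.82 to 3.45 against 2.82 to 3.02. These ratios are descriptions of genes chosen with earlier results known and were not tested.

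**Figure D2:**
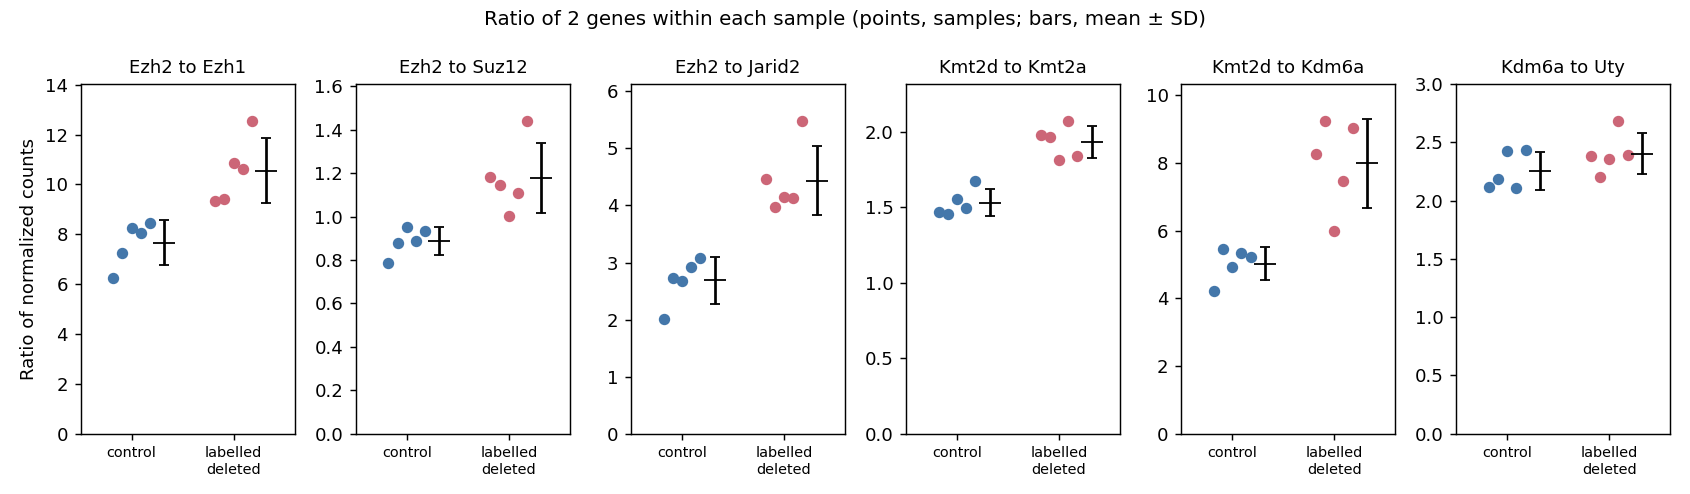
Ratio of the normalized counts of 2 genes within each spleen (linear axes from 0; points, samples; bars, mean ± SD, n = 5 per group). The ratios of Ezh2 to Ezh1, Suz12 and Jarid2 and of Kmt2d to Kmt2a and Kdm6a do not overlap between groups, whereas that of Kdm6a to Uty does.

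Promoter sequences are shown for the PRC2 genes to set the gene that rose beside 2 that did not. They come from RefSeq (GRCm38.p6), which held a window of 250 bases before to 50 after the start site for 8 of the 10 genes. Kdm6b and Phf6 had no entry. Jarid2 had 2 windows, both beginning inside the annotated gene, and only the first is shown. Each stretch below ends at or before the start site, is trimmed to bases outside annotated exons and reads 5′ to 3′ on the strand of the gene, and capitals mark matches to the motifs searched.
Ezh2, chr6:47595059-47595183, minus strand: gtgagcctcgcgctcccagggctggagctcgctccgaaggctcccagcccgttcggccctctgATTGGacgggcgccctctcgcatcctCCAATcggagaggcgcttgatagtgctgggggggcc
Suz12, chr11:79992856-79993105, plus strand: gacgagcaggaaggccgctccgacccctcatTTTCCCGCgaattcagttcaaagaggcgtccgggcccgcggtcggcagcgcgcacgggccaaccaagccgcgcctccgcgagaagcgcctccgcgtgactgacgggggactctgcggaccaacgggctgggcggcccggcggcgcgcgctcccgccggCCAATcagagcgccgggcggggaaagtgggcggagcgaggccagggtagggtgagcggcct
Jarid2, chr13:44730524-44730773, plus strand: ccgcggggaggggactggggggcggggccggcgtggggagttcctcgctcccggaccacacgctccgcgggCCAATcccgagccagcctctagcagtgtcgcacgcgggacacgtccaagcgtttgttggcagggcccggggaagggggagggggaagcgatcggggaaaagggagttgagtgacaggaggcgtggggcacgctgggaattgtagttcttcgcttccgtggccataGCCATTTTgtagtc
The motifs were TTTNNCGC (E2F), CCAAT (NF-Y), CCGGAAG (ETS), CACGTG (E-box), the interferon-stimulated response element and AANATGGC (YY1), searched on both strands. CCAAT was found in the windows of Ezh2, Suz12, Eed and Jarid2, that is in 4 of the 8 genes, and in 37.4% of all 32851 windows. The Ezh2 window held 3 of them, beginning 90, 64 and 11 bases before the start site. The second Jarid2 window held a further CCAAT, beginning 16 bases after its start site. A gene was counted if any of its windows matched, whereas the share over all windows counts single windows. TTTNNCGC was found in Ezh2, as TTTGGCGC beginning 3 bases after the start site, and in Suz12, as TTTCCCGC beginning 219 bases before it. Of all windows, 5.17% held this motif. The windows of Ezh2 and Suz12 held 31 and 41 CG pairs, against a median of 7 over all windows. Since TTTNNCGC contains CG, the share over all windows is not a matched background. E2F factors are known to drive Ezh2 in dividing cells, but their part here was not tested. The interferon-stimulated response element (3.44% of all windows) and CCGGAAG (8.86%) were in none of the 8 genes' windows. YY1 letters were in Jarid2 and Kmt2a (6.05% of all windows). A motif shared by Ezh2, which rose, and Jarid2, which fell, is a description of letters only.

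Other PRC2 subunits, taken from a list of 10 genes of which 9 were tested, divided between both directions. Of the 9, 1 rose, 3 fell and 5 did not pass the test (44.4% called, against 36.1% of all tested genes), and the median log2 difference was -0.18. Phf1, a subunit that binds methylated histone tails, rose from 868 ± 76.8 to 1362 ± 243 (SD over 5 samples each; log2 difference 0.64, limma adjusted p = 0.00202). Its paralog Mtf2 fell from 7949 ± 396 to 6445 ± 1196 (log2 difference -0.32, limma adjusted p = 0.0259). The DNA-binding cofactor Aebp2 fell by 0.16 on the log2 scale (limma adjusted p = 0.0193) and Lcor, whose long isoform joins PRC2, by 0.67 (limma adjusted p = 0.0198). The Mtf2 call was lost without labelled Sirt1-deleted sample 7, 8 or 12 or control 5 or 6 (-0.31 to -0.27). That of Aebp2 was lost without labelled Sirt1-deleted sample 8 (-0.14, limma adjusted p = 0.0512) and that of Lcor without control 2 (-0.55, limma adjusted p = 0.0541). The count of lower genes in this list was 1 without labelled Sirt1-deleted sample 8 or with the exact rank-sum test, and 5 without sample 10 or with sample weights. After upper-quartile rescaling Aebp2 differed by -0.10 (limma adjusted p = 0.0859).

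Kdm6a, which encodes the X-linked lysine 27 demethylase UTX, fell in the labelled Sirt1-deleted spleens. The gene lies on chromosome X at 18162575 to 18279936 (plus strand), and the 250 bases before its start site hold a single CACGTG, the E-box bound by MYC-family factors, beginning 27 bases before the start.
Kdm6a, chrX:18162325-18162574, plus strand: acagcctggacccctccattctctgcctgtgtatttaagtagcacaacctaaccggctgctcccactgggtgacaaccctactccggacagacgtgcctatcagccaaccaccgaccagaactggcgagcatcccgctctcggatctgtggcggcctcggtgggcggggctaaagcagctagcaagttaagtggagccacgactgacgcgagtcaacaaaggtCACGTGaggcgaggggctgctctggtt
E-boxes of these letters were in 7.15% of all windows and in no other of the 8 genes' windows. They also contain CG, and the Kdm6a window held 21 CG pairs against a median of 7. Kdm6a measured 1603, 1372, 1666, 1581 and 1363 normalized counts in labelled Sirt1-deleted samples 7, 8, 10, 11 and 12, and 2007, 1787, 1873, 1978 and 1997 in controls 2 to 6. All labelled Sirt1-deleted samples lay below all controls. The mean fell from 1928 ± 95.2 to 1517 ± 140 (SD over 5 samples each), a log2 difference of -0.35 (SE 0.07, 95% interval -0.50 to -0.20; limma adjusted p = 0.00268; exact two-sided permutation p = 0.00794).

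Uty, the Y-linked paralog of Kdm6a with little demethylase activity, fell too, from 859 ± 78.8 to 632 ± 57.2 (SD over 5 samples each; difference on the log2 scale -0.44, SE 0.08; limma adjusted p = 0.00229). The groups did not overlap for Uty. The ratio of Kdm6a to Uty overlapped between groups, at 2.20 to 2.68 in labelled Sirt1-deleted samples and 2.11 to 2.43 in controls. Of the other Y-linked genes listed, the histone demethylase gene Kdm5d fell by 0.40 on the log2 scale (limma adjusted p = 6.89e-04), while Ddx3y differed by 0.17 (limma adjusted p = 0.108) and Eif2s3y by -0.01 (limma adjusted p = 0.897).

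Kdm6b encodes the second lysine 27 demethylase, JMJD3, which inflammatory signals are known to induce in myeloid cells. It lies on chromosome 11 at 69398508 to 69413675 (minus strand). Its normalized counts were 4183, 4081, 3657, 3490 and 3632 in labelled Sirt1-deleted samples 7, 8, 10, 11 and 12, and 4630, 4493, 4225, 4598 and 4152 in controls 2 to 6. Sample 7 lay within the controls, just above control 6, and the others lay below them. The fall of 0.22 on the log2 scale (SE 0.06, 95% interval -0.35 to -0.09) passed the threshold (limma adjusted p = 0.0142; exact two-sided permutation p = 0.0159). The call did not hold after upper-quartile rescaling (-0.16, limma adjusted p = 0.0606), quantile normalization (-0.16, limma adjusted p = 0.0515) or the length and GC correction (-0.09, limma adjusted p = 0.203), nor with the exact rank-sum test (adjusted p = 0.0512). Loci on the opposite strand overlap the exons of Ezh2, Suz12, Eed, Kdm6b (Kdm6bos) and Kmt2a. The libraries were strand-specific but the strand setting of the counting is not stated, so reads from sequence shared by a pair may not be told apart. The share of short transcript sequences also found in any other gene, on either strand, was 2.18%, 3.68%, 7.61%, 3.29% and 2.10% in that order. None of these opposite-strand loci was in the deposited table.

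Kmt2d encodes the lysine 4 methyltransferase of enhancers, which works in a complex with KDM6A (chromosome 15, 98831669 to 98871204, minus strand). It measured 13231, 12665, 9964, 11778 and 12287 normalized counts in labelled Sirt1-deleted samples 7, 8, 10, 11 and 12, and 8488, 9730, 9206, 10543 and 10398 in controls 2 to 6. Sample 10 lay within the controls and the other 4 above them. The mean rose from 9673 ± 853 to 11985 ± 1248 (SD over 5 samples each), a log2 difference of 0.31 (SE 0.08, 95% interval 0.13 to 0.48; limma adjusted p = 0.0108; exact two-sided permutation p = 0.0238). With the exact rank-sum test the call was lost (adjusted p = 0.0823). Its transcript is among the longest, at 19823 bases. Genes with transcripts of at least 10000 bases had a median log2 difference of -0.009 (309 genes), and after the length and GC correction Kmt2d differed by 0.30 (limma adjusted p = 0.0122).

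Kmt2a encodes the founding trithorax-like methyltransferase, which maintains HOXA genes in blood progenitors (chromosome 9, 44803355 to 44881296, minus strand). Normalized counts were 6700, 6451, 5489, 5690 and 6685 in labelled Sirt1-deleted samples 7, 8, 10, 11 and 12, and 5784, 6697, 5918, 7049 and 6203 in controls 2 to 6. The groups were interleaved, and the log2 difference was -0.03 (95% interval -0.19 to 0.13; limma adjusted p = 0.776; exact two-sided permutation p = 0.69). Its sign turned without labelled Sirt1-deleted sample 10 (0.01) and without control 5 (0.009). Within samples, the ratio of Kmt2d to Kmt2a was 1.98, 1.96, 1.82, 2.07 and 1.84 in the labelled Sirt1-deleted group and 1.47, 1.45, 1.56, 1.496 and 1.68 in controls, with no overlap. Kmt2d to Kdm6a, partners in 1 complex that moved in opposite directions, ranged from 5.98 to 9.23 against 4.23 to 5.44. Neither ratio was tested, and Kdm6a by itself did not overlap between the groups.

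The other 2 large KMT2 paralogs did not pass the test. Kmt2b, the closest relative of Kmt2a, measured 4390 ± 497 against 4241 ± 269 (SD over 5 samples each; log2 difference 0.04, 95% interval -0.12 to 0.21, limma adjusted p = 0.680), and its sign turned without labelled Sirt1-deleted sample 7 (-0.008). Kmt2c, the closest relative of Kmt2d, measured 2933 ± 311 against 2679 ± 212 (log2 difference 0.13, 95% interval -0.05 to 0.30, limma adjusted p = 0.228). Without labelled Sirt1-deleted sample 10, Kmt2c differed by 0.19 (limma adjusted p = 0.0359). Of the 18 listed subunits of KMT2 and SET1 complexes, 2 rose, 4 fell and 12 did not pass (33.3% called, against 36.1% of all tested genes), with a median log2 difference of -0.07. Pagr1a, specific to the KMT2C and KMT2D complexes, rose from 189 ± 25.2 to 354 ± 106 (SD over 5 samples each; log2 scale 0.87, limma adjusted p = 0.00286), and Dpy30, a subunit of the core shared by these enzymes, rose by 0.24 (limma adjusted p = 0.00275). After the length and GC correction Dpy30 differed by 0.08 (limma adjusted p = 0.163). Setd1a and its CpG-binding partner Cxxc1 fell by 0.35 and 0.22 on the log2 scale (limma adjusted p = 0.00209 and 0.00217).

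Phf6, an X-linked gene whose protein carries PHD-like zinc fingers and which is a frequent loss-of-function target in T-ALL, had the largest fall of the 10 genes. It lies on chromosome X at 52912266 to 52956943 (plus strand). Normalized counts were 2664, 2970, 3502, 3275 and 2582 in labelled Sirt1-deleted samples 7, 8, 10, 11 and 12, and 4425, 3997, 4050, 4381 and 4352 in controls 2 to 6. No labelled Sirt1-deleted sample reached the lowest control. The mean fell from 4241 ± 201 to 2999 ± 393 (SD over 5 samples each), a log2 difference of -0.51 (SE 0.08, 95% interval -0.68 to -0.34; limma adjusted p = 9.66e-04; exact two-sided permutation p = 0.00794).

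**Figure D3:**
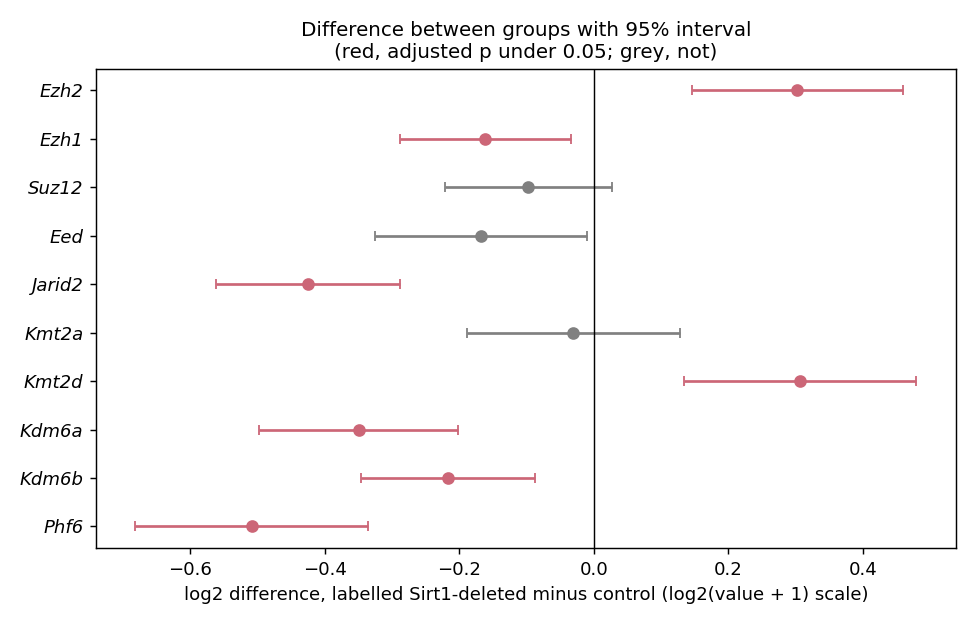
Log2 difference between the groups for each of the 10 genes, on the log2(value + 1) scale, with the 95% interval from limma; red points passed an adjusted p of 0.05 and grey points did not. Ezh2 (0.30) and Kmt2d (0.31) lie on the higher side and Phf6 (-0.51) lies lowest.

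Per kilobase of annotated transcript, Ezh2 had the highest level of the 10 genes in both groups, at 4050 ± 402 normalized counts per kilobase with the label and 3279 ± 256 without it (SD over 5 samples each). Suz12 followed with 2210 ± 196 and 2357 ± 63.2, then Eed with 1530 ± 169 and 1711 ± 80.5, and Phf6 with 689 ± 90.3 and 975 ± 46.2. The core PRC2 genes Ezh2, Suz12 and Eed thus stood above the other members, Ezh1 and Jarid2 included, on this scale. Kdm6b, Jarid2 and Kmt2d came next in controls, at 664 ± 32.9, 573 ± 52.3 and 488 ± 43.0 per kilobase. In labelled Sirt1-deleted samples Kmt2d (605 ± 63.0) and Kdm6b (572 ± 45.7) were within their spreads and both stood above Jarid2 (426 ± 20.2). Kmt2a was at 377 ± 34.8 and 385 ± 32.4, and Ezh1 and Kdm6a were lowest, at 256 ± 14.7 and 256 ± 23.7 in labelled Sirt1-deleted samples and 286 ± 13.8 and 326 ± 16.1 in controls. The annotated transcript length stands in for the length used in the counting, which is not stated.

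PRC1, the partner complex of PRC2, had 24 listed subunits, all tested. Of these 1 rose, 8 fell and 15 did not pass (37.5% called, near the 36.1% of all tested genes), and the median log2 difference was -0.15. The variant PRC1 subunits Kdm2b, which binds CpG islands, and Bcor, a suppressor lost in some T-ALL, fell by 0.45 and 0.42 on the log2 scale (limma adjusted p = 0.00220 and 0.00122). Kdm2b went from 3811 ± 284 to 2792 ± 353 and Bcor from 4028 ± 338 to 3018 ± 220 (SD over 5 samples each). The canonical subunit Phc1 fell from 1432 ± 123 to 1048 ± 55.3 (log2 difference -0.45, limma adjusted p = 7.79e-04). Pcgf5, a RING-finger partner of variant PRC1, was the gene that rose, from 630 ± 12.5 to 761 ± 65.6 (SD over 5 samples each; log2 scale 0.27, limma adjusted p = 0.0101). Other lower genes included Rnf2, which encodes the ubiquitin ligase, Bmi1, Cbx2 and Phc3. A second gene passed as higher after upper-quartile rescaling, after the length and GC correction and without labelled Sirt1-deleted sample 10 or control 6, while between 8 and 10 genes were lower in all settings run.

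Genes of the deubiquitinase that removes the PRC1 mark (PR-DUB) and of its partners numbered 8 among those tested. Of these 5 fell, 1 rose and 2 did not pass (75% called, against 36.1% of all tested genes), with a median log2 difference of -0.28. Asxl2, a scaffold of the enzyme, fell from 3184 ± 380 to 2259 ± 158 (SD over 5 samples each; log2 difference -0.49, limma adjusted p = 0.00118). The DNA-binding partner Foxk1 fell from 2601 ± 156 to 1954 ± 158 (log2 difference -0.41, limma adjusted p = 9.60e-04). Bap1, the catalytic subunit, and Asxl1 were the other genes lower beside Mbd5. Mbd5 differed by -0.29 (limma adjusted p = 0.0398), a call lost in 7 of the 10 fits without 1 sample, all but those without labelled Sirt1-deleted sample 7 or 12 or control 3 (-0.33 to -0.22 over the 10). Its paralog Mbd6 rose by 0.25 (limma adjusted p = 0.0288), which did not hold without labelled Sirt1-deleted sample 8 or 12 or control 2 or 5 (0.20 to 0.24).

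**Figure D4:**
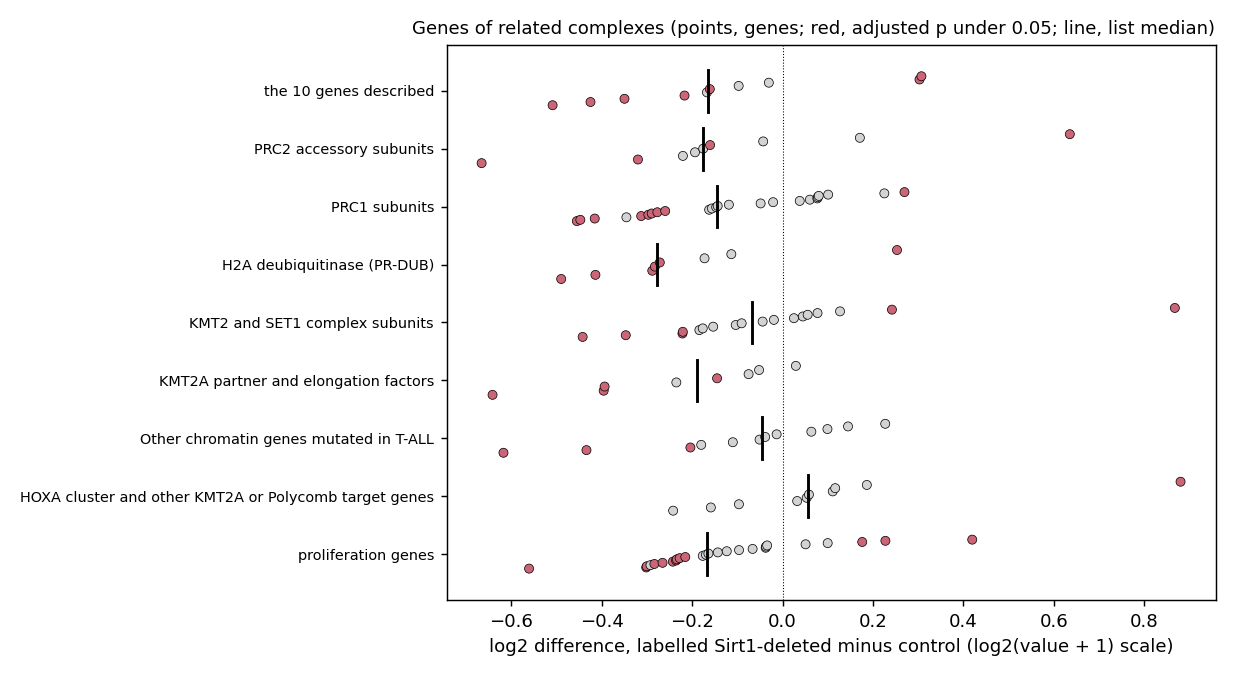
Log2 difference of each tested gene (points) in 9 gene lists, on the log2(value + 1) scale; red points passed an adjusted p of 0.05 and the vertical line is the list's median. Medians lie between -0.28 for PR-DUB genes and 0.06 for the HOXA and target list.

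Among partners of KMT2A in leukemia and elongation factors, 4 of 8 fell, none rose and 4 did not pass (50% called, against 36.1% of all tested genes; median log2 difference -0.19). Aff4 and Aff1, scaffolds of the super elongation complex, fell by 0.64 and 0.40 on the log2 scale (limma adjusted p = 7.56e-04 and 0.00330). Mllt1 fell from 2927 ± 151 to 2252 ± 370 (log2 difference -0.39, limma adjusted p = 0.0101), and the lysine 79 methyltransferase gene Dot1l was the fourth. Of 12 other chromatin genes mutated in T-ALL, 3 fell and 9 did not pass (25% called, against 36.1% of all tested genes; median log2 difference -0.04). Dnmt3a, a de novo DNA methyltransferase, fell from 7740 ± 702 to 5076 ± 713 (log2 difference -0.62, limma adjusted p = 9.69e-04). Nsd2, which methylates lysine 36, fell by 0.43 (limma adjusted p = 0.00949) and the insulator gene Ctcf by 0.20 (limma adjusted p = 0.00874). No gene of that list passed as higher with the settings used throughout, whereas 1 to 3 did in 6 of the 11 other settings (2 after upper-quartile rescaling, 3 after the length and GC correction) and 1 did without labelled Sirt1-deleted sample 8, 10 or 11.

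Genes that KMT2A and Polycomb are known to regulate in blood cells mostly did not pass the test. Of 20 listed genes, 15 were in the table and 10 passed the filter on low values; 1 rose, none fell and 9 did not pass (10% called, against 36.1% of all tested genes; median log2 difference 0.06). With a minimum mean of 1 or no filter 2 were higher, and with a minimum mean of 50 none was. Hoxa9, the HOXA gene most tied to leukemia, measured 12.4 ± 5.69 against 14.1 ± 3.68 (SD over 5 samples each; limma adjusted p = 0.631). Hoxa5, Hoxa7, Hoxa10 and Hoxa11 were among the genes below the filter. Meis1, the usual cofactor of Hoxa9, measured 33.6 ± 10.6 against 31.5 ± 6.44 (limma adjusted p = 0.877). The tumor suppressor locus Cdkn2a, a classical Polycomb target, measured 435 ± 60.7 against 399 ± 26.3 (limma adjusted p = 0.391). Hhex, a homeobox gene of early blood cells, rose from 22.4 ± 3.59 to 42.2 ± 7.36 (SD over 5 samples each; log2 scale 0.88, limma adjusted p = 0.00641).

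Ezh2 is known as a gene of dividing cells, so proliferation genes are given beside it. Of 26 such genes, 10 fell, 3 rose and 13 did not pass (50% called, against 36.1% of all tested genes; median log2 difference -0.17). Mki67, a marker of cycling cells, went from 37689 ± 2602 to 32103 ± 3103 (SD over 5 samples each; limma adjusted p = 0.0203), while Top2a measured 31585 ± 1778 against 32439 ± 2552 (limma adjusted p = 0.670). Mcm3, Birc5 and Rrm1 were the higher genes, with log2 differences of 0.42, 0.23 and 0.18. The 10 lower calls were unstable: 5 remained as a count after upper-quartile rescaling, 4 without the intensity trend, 6 after the length and GC correction, 1 with the exact rank-sum test, and 3, 5 and 6 without labelled Sirt1-deleted sample 7, 8 and 12. Without control 2, 5 and 6 the counts were 4, 3 and 6. Other fits gave more lower genes. The count ranged from 1 to 15 over the 11 alternatives with all samples and from 3 to 14 without 1 sample. The part of the proliferation genes in the rise of Ezh2 was not tested.

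Markers of several cell types differed between the labelled groups, which in bulk RNA need not mean a change in cell numbers. T lineage markers were abundant in all samples, and the most abundant, Tcf7, a transcription factor of T cell development, fell from 77942 ± 2611 to 58426 ± 5636 normalized counts (SD over 5 samples each; log2 difference -0.42, limma adjusted p = 9.06e-04). The next most abundant, the kinase gene Lck and the receptor subunit gene Cd3g, differed by 0.13 and 0.11 on the log2 scale (limma adjusted p = 0.0743 and 0.238), in the other direction. The summed T lineage markers ranged from 178300 to 198200 in labelled Sirt1-deleted samples and from 204900 to 220100 in controls. Tcf7 contributes most to these sums, and most of their difference lies in Tcf7. Of the 18 genes 6 fell and 1 rose (38.9% called, near the 36.1% of all tested genes). Summed neutrophil markers ranged from 27250 to 94760 against 8491 to 11790 (0.0796% to 0.279% and 0.0250% to 0.0346% of all normalized counts). Of 14 neutrophil markers 13 rose (92.9%), against 16.8% of all tested genes that were higher. Summed macrophage and monocyte markers ranged from 7800 to 14080 against 3851 to 4397, with 13 of 16 higher (81.2%). Interferon response genes ranged from 24550 to 39410 in sum against 13820 to 16560, with 16 of 18 higher (88.9%). Erythroid markers gave 0 calls of 10 by limma, and sums ranged from 39300 to 160400 against 42840 to 134200. B cell markers had 1 gene higher of 9 tested (11.1%, against 16.8% of all tested genes). Stromal and endothelial markers had 2 lower of 7 (28.6%, against 19.4%) and NK cell markers 0 of 4. None of the listed markers present in the table was at 0 in every sample. The part of these cell types and of the interferon genes in the differences of the 10 genes was not tested. Within the labelled Sirt1-deleted group, neutrophil markers were highest in sample 8 and lowest in sample 10. Sample 8 was the lowest of that group only for Ezh2 and Suz12 and the highest for none of the 10 genes. Sample 10 was the highest for Phf6, Kdm6a, Suz12 and Eed and the lowest for Kmt2d, Kmt2a and Ezh1. Any link between marker levels and these orders was not tested. Sample 12 had the lowest summed T lineage markers, the highest Ezh2 and the lowest Phf6, Jarid2, Kdm6a and Eed.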

How the data were processed

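RNA sequencing of 10 leukemic spleens was analysed, 5 per group. Strand-specific libraries were quantified with kallisto 0.44.0 and normalized with DESeq on mm10, per the submitters' processing notes. The deposited signal values are the authors' normalized counts per gene, not raw counts, so raw depth is unknown and no count model was used; the number of deposited columns left unused was 0. Genes with a mean of at least 10 (15276 of 20813) were tested on log2(value + 1) with limma 3.58.1 (R 4.3.3), with an intensity trend and Benjamini-Hochberg adjustment over all tested genes at 0.05. Differences are on this scale and understate the change of low genes. Each gene was also tested by exact permutation, two-sided, over all 252 ways to assign the labels, where 0.00794 is the smallest possible p. Tested on simulated data of this comparison over 15276 genes, the fit made 184 calls, 11 of them false. It recovered 96 of 100 genes with a 2-fold change and 77 of 100 with a 1.5-fold change. That simulation held far fewer changed genes than the 5518 called in the deposited values. Recovery and false calls at the spread of the deposited values were not tested. The members and gene lists were chosen with earlier results of these data known. From each chromatin list, up to 3 higher and 3 lower genes with the largest difference and a mean of at least 100 (10 for HOXA and target genes) were named, besides the paralogs Kmt2b, Kmt2c and Uty; from marker and proliferation lists, at most the 3 most abundant genes. The other HOXA genes given with values, Hoxa9, Meis1, Cdkn2a, the Y-linked genes, Mcm3, Birc5, Rrm1 and genes named without values were chosen after their values were seen. Lengths and loci are from GENCODE M21 (GRCm38). Alternatives covered the pseudocount, filter, scaling, trend, sample weights, a rank-sum test, each sample left out and, chosen after seeing the data, a length and GC correction.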

Additional observations from a re-analysis of the deposited data

Results flagged for a closer look

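In 4 of 74 sets of 5 samples, 1 sample lay further from the rest than Dixon's critical value of 0.71 for the gap over the range; chance gives about 1 in 20, or 3.7 sets. Mbd5 was highest in control sample 2, at 659.9 normalized counts against 499.2 to 530.1 in the other controls. Setd1a was also highest there, at 5496 against 4379 to 4661. Dnmt3a was highest in control sample 2, at 8965 against 7205 to 7627, and lowest in labelled Sirt1-deleted sample 12, at 3830 against 5217 to 5573. No such sample was found for any of the 10 genes in either group.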

How the results depend on the processing

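No paired analysis was possible because labelled Sirt1-deleted and control samples have no number in common. With the exact rank-sum test, 4 of the 10 genes and 3659 genes in all were called, against 7 and 5518 by limma. With 5 samples per group this test passed only genes whose groups did not overlap. Its calls are therefore the non-overlapping genes already counted and not a separate check. Leaving out 1 sample gave 6 to 8 of the 10 genes and 4207 to 6259 in all. Ezh2, Jarid2, Kdm6a and Phf6 kept their direction and call in all 11 alternatives and all 10 fits without 1 sample. Kmt2a, not called, changed sign after upper-quartile rescaling (0.02991), quantile normalization (0.005933) and the length and GC correction (0.01007), and ranged from -0.06182 to 0.01252 without 1 sample; Kmt2b ranged from -0.008018 to 0.1069. Upper-quartile rescaling moved the median of all tested genes from -0.00014 to 0.06 on the log2 scale and quantile normalization to -0.03. The cause of these changes was not tested. Of 110 alternative values of the 10 genes, 91 kept direction and call, 13 lost the call, 3 gained it and 3 changed sign.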
